A study of Mus musculus with 5 samples.

Results

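β-Catenin peaks were examined at the loci of 6 genes that maintain the naive state of mouse embryonic stem cells: Esrrb, Tfcp2l1, Nr5a2, Tbx3, Klf2 and Klf4. A peak was assigned to a locus when its summit lay in a fixed mm9 window around the gene. The windows ran from 87650000 to 87910000 on chromosome 12 for Esrrb, from 120470000 to 120630000 on chromosome 1 for Tfcp2l1, from 138690000 to 138910000 on chromosome 1 for Nr5a2, from 120050000 to 120200000 on chromosome 5 for Tbx3, from 74790000 to 74900000 on chromosome 8 for Klf2 and from 55450000 to 55600000 on chromosome 4 for Klf4. Together they measured 1.05 Mb, and all coordinates of peaks are in mm9. They held 71 peaks: 29 of 16069 in the CHIR99021 anti-FLAG list, 27 of 15947 in the CHIR99021 streptavidin list and 15 of 12734 in the DMSO streptavidin list. Overlapping or touching peaks were merged across the lists, which gave 35 regions at the 6 loci out of 33485 genome-wide.

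The ChIP libraries came from V6.5 embryonic stem cells with a biotin and FLAG tag knocked into Ctnnb1, the β-catenin gene, together with the BirA ligase that attaches the biotin. All were cultured in serum and LIF on feeder cells and then enriched for stem cells by plating. Treated cells received CHIR99021, a GSK3 inhibitor, at 3 µM for 16 h per the treatment protocol (24 h per the series text), and tagged β-catenin was pulled down with anti-FLAG or with streptavidin. Control cells received DMSO, and their library is labelled as a streptavidin capture although its run is named for FLAG. Each group is 1 library of 1 knock-in line, so no value has a replicate error and no test across samples was possible. ChIP from cells without the tag was not analysed here. RNA was not measured, so neither the expression of the 6 genes, and with it any relief of repression, nor the stem cell identity of the cultures could be checked.

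Canonical Wnt signalling stabilises β-catenin, which enters the nucleus and binds DNA through TCF and LEF factors. In mouse embryonic stem cells the family member Tcf7l1 (also called Tcf3) represses pluripotency genes, and β-catenin is known to relieve that repression. Esrrb is a much studied target of this relief. Esrrb and Nr5a2 are orphan nuclear receptors, Tfcp2l1 is a grainyhead-family factor, Tbx3 is a T-box factor, and Klf2 and Klf4 are Krüppel-like zinc finger factors. All belong to the circuit that holds cells in the naive state under LIF or GSK3 inhibition.

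Promoter sequences were taken from RefSeq (GRCm38.p6), which lists 7 promoters for 5 of the 6 genes; Tbx3 was not matched. The 250 bases before each start were searched on both strands for the TCF/LEF core letters CTTTGA and CTTTGT and for AAGGTCA, the core recognised by Esrrb and Nr5a2; no matches overlapped. Only 1 of the 7 held a TCF/LEF match, an Nr5a2 promoter with ACAAAG starting at position -175 from the start. Genome-wide 27.6% of 32851 promoters of this length held one. None of the 7 held AAGGTCA, which 4.08% of all promoters did. The peak coordinates are in mm9 and no mm9 gene positions were at hand, so peaks were not placed relative to these promoters. The Nr5a2 promoter with the match (chr1:136953631-136953880, minus strand) is shown with the matched letters in capitals. The promoters of Tfcp2l1 (chr1:118627695-118627944, plus strand) and Klf4 (chr4:55532476-55532725, minus strand), the genes whose loci held the highest-ranked regions below, are shown beside it and had no match.
Nr5a2: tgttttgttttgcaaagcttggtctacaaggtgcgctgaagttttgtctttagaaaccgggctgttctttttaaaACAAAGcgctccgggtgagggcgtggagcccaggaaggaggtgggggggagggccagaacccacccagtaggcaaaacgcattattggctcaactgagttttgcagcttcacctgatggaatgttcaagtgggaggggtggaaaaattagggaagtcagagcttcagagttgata
Tfcp2l1: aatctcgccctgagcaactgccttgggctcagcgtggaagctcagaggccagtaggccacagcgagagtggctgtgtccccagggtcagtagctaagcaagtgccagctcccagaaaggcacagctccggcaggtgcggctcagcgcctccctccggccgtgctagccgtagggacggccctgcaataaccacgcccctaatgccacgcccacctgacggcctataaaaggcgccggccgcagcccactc
Klf4: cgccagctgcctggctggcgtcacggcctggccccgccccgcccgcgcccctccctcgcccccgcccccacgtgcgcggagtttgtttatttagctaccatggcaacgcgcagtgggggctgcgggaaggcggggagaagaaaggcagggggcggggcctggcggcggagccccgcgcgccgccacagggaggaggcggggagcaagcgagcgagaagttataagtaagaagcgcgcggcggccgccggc

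All 6 loci carried regions found by both captures after CHIR99021, 23 in all: 6 at Tbx3, 5 at Esrrb, 4 at Klf2, 4 at Klf4, 2 at Tfcp2l1 and 2 at Nr5a2. Per Mb of window this was 21.9 over the 6 loci, against 3.54 over the spans of all chromosomes. The windows were drawn around genes, whereas the genome-wide value includes gene-poor sequence. By locus the density was 40.0 per Mb at Tbx3, 36.4 at Klf2, 26.7 at Klf4, 19.2 at Esrrb, 12.5 at Tfcp2l1 and 9.09 at Nr5a2. Of the remaining 12 regions, 5 were found by anti-FLAG alone, 3 by CHIR99021 streptavidin alone, 1 by CHIR99021 streptavidin and DMSO, and 3 by DMSO alone.

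**Figure D1:**
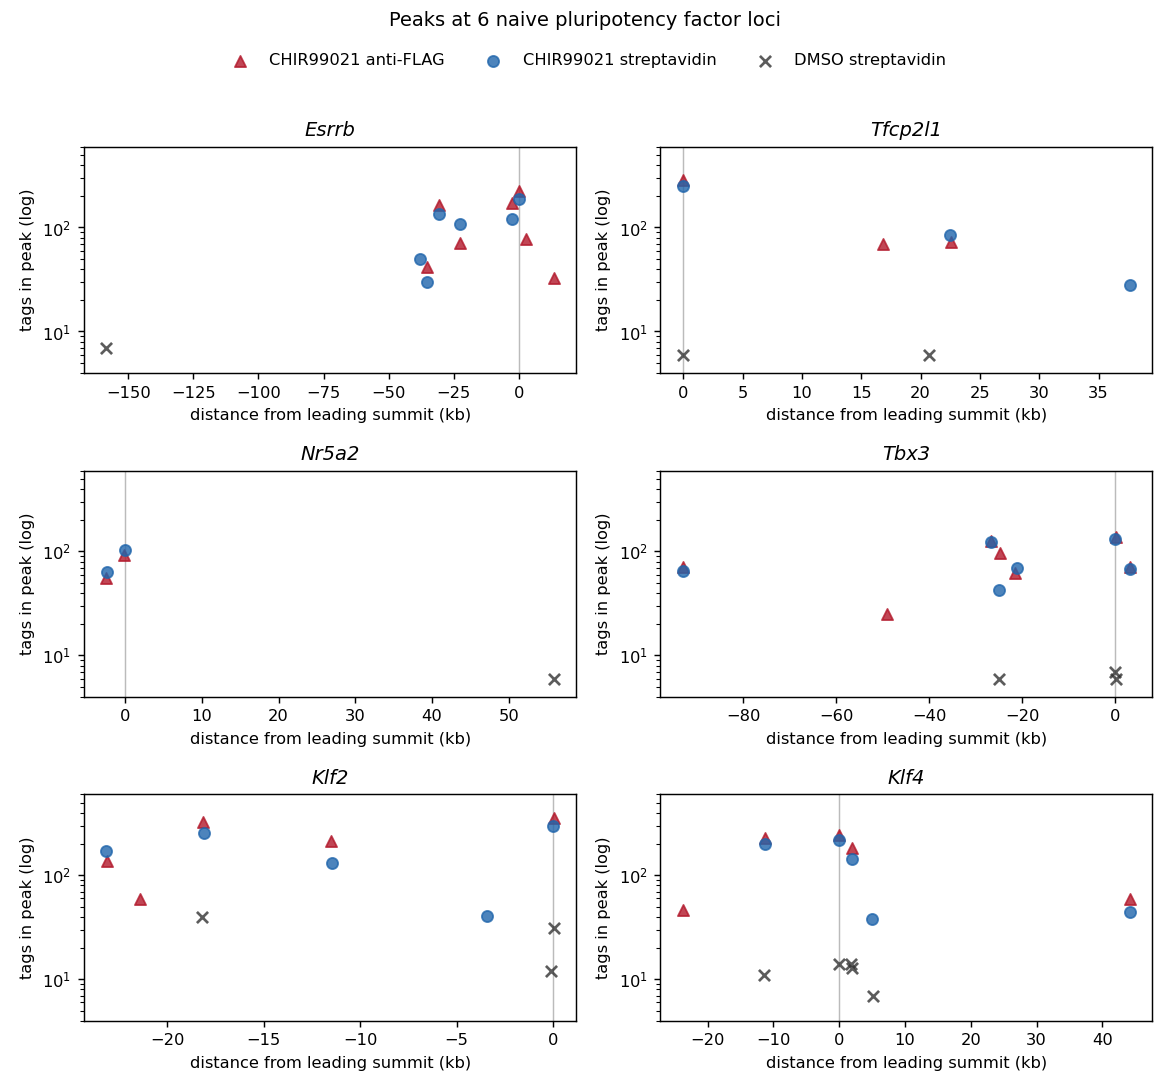
Tags per peak (log axis) against distance in kb from the streptavidin summit of the leading region, for each locus. Triangles are CHIR99021 anti-FLAG, circles CHIR99021 streptavidin and crosses DMSO; DMSO peaks of more than 20 tags appear only at Klf2, and the Nr5a2 locus has only 2 CHIR99021 sites, side by side.

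At Esrrb the regions of both lists spanned 36.8 kb on chromosome 12, from 87806794 to 87843588, and none held a DMSO peak. The leading one (87842165 to 87843588) had 226 anti-FLAG tags (95% Poisson interval 197 to 257) and 189 CHIR99021 streptavidin tags (163 to 218). It stood 201st of the anti-FLAG list and 231st of the streptavidin list by p score, with fold enrichments of 26.21 and 28.73 over local background. Its neighbour from 87837838 to 87840463 had 171 and 121 tags, with summits 3 bp apart. That from 87810551 to 87812635 had 166 anti-FLAG and 136 streptavidin tags. The others were weaker, with 71 and 109 tags from 87818285 and 42 and 30 tags from 87806794. These 5 regions were listed because both captures called them, and their tags varied several-fold. In addition, 2 regions were found by anti-FLAG alone, the larger with 78 tags (87844862 to 87846327), and 1 by streptavidin alone with 50 tags. The only DMSO peak, of 7 tags, lay outside every CHIR99021 peak (87684321 to 87684388).

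Nr5a2 had the weakest binding of the 6 loci. Its 2 regions of both lists lay side by side on chromosome 1 (138847308 to 138848519 and 138848650 to 138851144), separated by 130 bp. The first had 56 anti-FLAG and 64 streptavidin tags, the second 92 (interval 74.2 to 113) and 103 (84.1 to 125). Fold enrichments ran from 5.59 to 8.63, and no peak of the locus was in the top 10% of either CHIR99021 list by p score. The 1 DMSO peak of the window had 6 tags and lay apart from them (138906245 to 138906315).

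Tfcp2l1 had a single strong region. On chromosome 1 from 120521795 to 120523655, it had 284 anti-FLAG tags (252 to 319) and 250 CHIR99021 streptavidin tags (interval 220.0 to 283), with fold enrichments of 40.56 and 44.45. It stood 170th and 133rd by p score. A DMSO peak of 6 tags had its summit 12 bp from the anti-FLAG summit. The next region (120543835 to 120545484) was much smaller, with 73 anti-FLAG and 85 streptavidin tags and no DMSO peak. Anti-FLAG alone gave a peak of 69 tags (120538661 to 120540074) and streptavidin alone one of 28 tags (120559504 to 120560461). A DMSO peak of 6 tags (120542977 to 120543028) lay outside the CHIR99021 peaks.

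Tbx3 had the most regions, spread over 98.1 kb of chromosome 5. The leading one (120156220 to 120157836) had 139 anti-FLAG tags (117 to 164), 132 CHIR99021 streptavidin tags (interval 110.4 to 157) and 2 DMSO peaks with 13 tags together. The region from 120129317 to 120130786 was close to it in size, with 126 and 123 tags, but had no DMSO peak. The intervals of these regions overlap in both captures. From 120131281 to 120133651 there were 97 anti-FLAG, 43 streptavidin and 6 DMSO tags. The other 3 regions had 62 to 71 anti-FLAG and 65 to 70 streptavidin tags and no DMSO peak. No Tbx3 peak reached the top 2% of its list by p score, and 1 anti-FLAG peak of 25 tags (120107231 to 120107872) stood alone near the bottom of its list.

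The Klf2 window held the highest tag counts. On chromosome 8 the region from 74856044 to 74859598 had 356 anti-FLAG tags (320.0 to 395), 299 CHIR99021 streptavidin tags (266 to 335) and 43 DMSO tags (31.1 to 57.9) in 2 peaks. The region from 74838422 to 74842264 had 327, 258 and 40 tags (28.6 to 54.5 for DMSO). These were also the loci's strongest DMSO sites by tag count: the next highest DMSO total at the 6 loci was 27 tags. The Klf2 regions were broad, 2986 bp from 74834549 with 196 anti-FLAG and 171 streptavidin tags and 4151 bp from 74843824 with 214 and 131 tags, and neither of these held a DMSO peak. For the first, the anti-FLAG tags came in 2 peaks under 1 streptavidin peak. Fold enrichments at Klf2 stayed at or below 21.86 for anti-FLAG and 23.95 for streptavidin, lower than at the leading Klf4 and Tfcp2l1 regions despite more tags. Streptavidin alone gave 1 peak of 41 tags (74854254 to 74855418).

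Klf4 had DMSO peaks at 4 sites, of which 3 had strong CHIR99021 peaks. In mouse embryonic stem cells Klf4 is known to be controlled by distal enhancers. On chromosome 4, 3 strong regions lay within 15.7 kb. That from 55487783 to 55489275 had 245 anti-FLAG tags (215 to 278), 219 CHIR99021 streptavidin tags (191 to 250.0) and 14 DMSO tags (7.65 to 23.5). It stood 131st and 139th by p score, with fold enrichments of 37.78 and 44.85, the smallest rank sum of the 6 loci. The region from 55476254 to 55478078 had 228, 199 and 11 tags, and that from 55489667 to 55492001 had 183, 144 and 27. Each of the 3 was in the top 10% of both CHIR99021 lists and each held a DMSO peak. A further site, from 55492979 to 55493950, was called by streptavidin with 38 tags and by DMSO with 7 tags, but not by anti-FLAG. The last region of both CHIR99021 lists (55532200 to 55533251) lay 40.2 kb beyond the one ending at 55492001, with 59 and 44 tags and no DMSO peak. Its mm9 coordinates cannot be set against the GRCm38.p6 coordinates of the Klf4 promoter above, although the numbers are alike. Anti-FLAG alone gave 1 peak of 46 tags (55463556 to 55464934).

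The 6 loci were next compared with the whole lists for capture by FLAG against capture by streptavidin. Of the anti-FLAG peaks at the loci, 24 of 29 (82.8%, exact 95% interval 64.2 to 94.2%) overlapped a streptavidin peak of CHIR99021-treated cells, against 57.6% of the whole list. In the other direction it was 23 of 27 (85.2%, 66.3 to 95.8%), against 57.8%. Intervals cover counting error only, and neighbouring peaks of a locus are not independent. Locus peaks also had more tags and were wider than the lists as a whole (values below). The shares were not matched for peak size, so a trait particular to the loci cannot be read from them. Summits of partnered peaks lay a median of 40.5 bp apart at the loci and 42.0 bp over all 9255 partnered anti-FLAG peaks. They lay within 200 bp for 22 of 24 pairs, 91.7%, against 91.3% of all pairs, so summits at the loci lay about as far apart as in the lists as a whole. The peaks without a partner had 25 to 78 anti-FLAG tags and 28 to 50 streptavidin tags.

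Tags per 1000000 unique tags were compared next, since the anti-FLAG library had 16100920 unique tags and the CHIR99021 streptavidin library 11934863. The leading Klf2 region had 22.1 by anti-FLAG and 25.1 by streptavidin, and the leading Tfcp2l1 region 17.6 and 20.9. The median ratio of anti-FLAG to streptavidin over the 23 regions was 0.849, against 0.879 over all 9113 regions of both lists. Counting intervals of the ratio held 1 in 14 locus regions, lay below 1 in 8 (34.8%, interval 16.4 to 57.3%), against 18.4% of all such regions, and above 1 in 1 (4.35%), against 3.76%. Scaled by the tags in all peaks of each list instead, 1 locus region lay below 1 (4.35%, against 7.03% of all) and 2 above (8.70%, against 10.00%), so the side of 1 depended on the scaling, and nothing particular to the loci was read from it. The lowest ratio was 0.483 (0.353 to 0.657) at Esrrb from 87818285, where the streptavidin peak covered 2381 bp and the anti-FLAG peak 1117 bp. Per kb of peak and 1000000 unique tags the values there were close, 3.95 for anti-FLAG and 3.84 for streptavidin, a ratio of 1.03. The highest was 1.67 (1.16 to 2.45) at Tbx3 from 120131281, where the anti-FLAG peak covered 2371 bp and the streptavidin peak 1291 bp. Per kb on the same scale it had 2.54 by anti-FLAG and 2.79 by streptavidin, a ratio of 0.910. Both extremes had unequal peak widths, but so did Esrrb from 87837838, with 2569 bp for anti-FLAG, 1346 bp for streptavidin and a ratio of 1.05. Per kb the ratios of the locus regions ran from 0.549 there to 1.34 at Klf4 from 55532200. Whether peak width sets the ratio was not tested. The median ratio per kb was 0.924 at the loci and 0.925 over all 9113 regions.

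**Figure D2:**
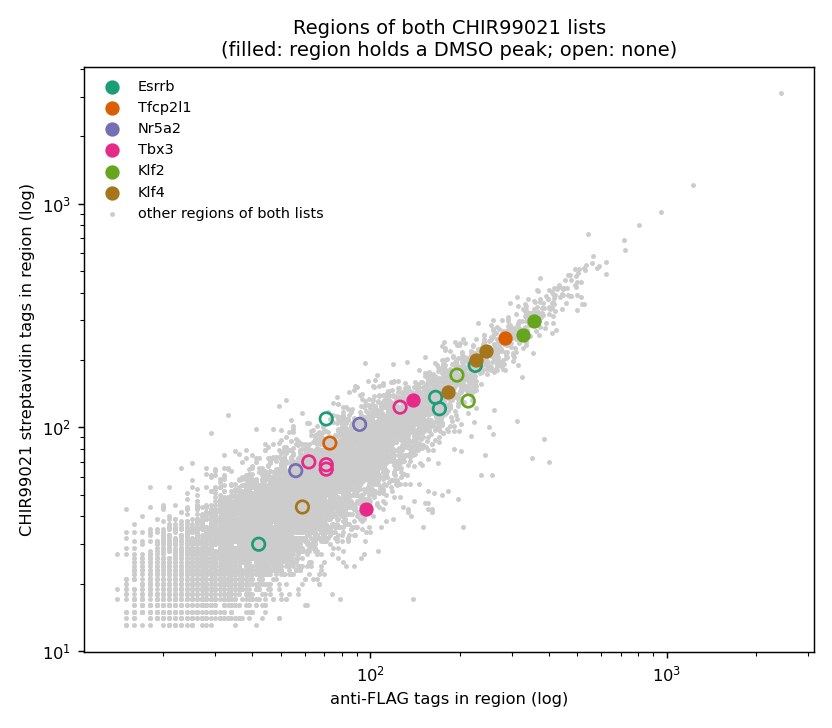
Anti-FLAG tags against CHIR99021 streptavidin tags in each region of both CHIR99021 lists (log axes), with the 23 locus regions in colour and all other regions in grey. Filled symbols hold a DMSO peak and open ones do not; the locus regions run along the grey cloud, up to 356 and 299 tags at Klf2.

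CHIR99021 peaks at the loci were large for their lists. Anti-FLAG peaks had a median of 92.0 tags at the loci and 39.0 in the whole list, and streptavidin peaks 109 and 34.0. Median peak lengths were 1460 bp at the loci and 859 bp in the whole list for anti-FLAG, and 1569 and 926 bp for streptavidin. By p score the median locus peak stood at 28.0% from the top of the anti-FLAG list and 20.6% from the top of the streptavidin list. By fold enrichment the places were 46.9% and 35.5%. Median fold enrichments at the loci, 8.25 for anti-FLAG and 10.1 for streptavidin, were near the 8.13 and 8.56 of the whole lists. The lead of these loci in the CHIR99021 lists thus lay in tags and width more than in fold over background. Of the 23 regions, 7 (30.4%, interval 13.2 to 52.9%) were in the top 10% of both lists by p score, against 13.9% of all regions of both lists: 3 at Klf4 and 1 each at Esrrb, Tfcp2l1, Tbx3 and Klf2.

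**Figure D3:**
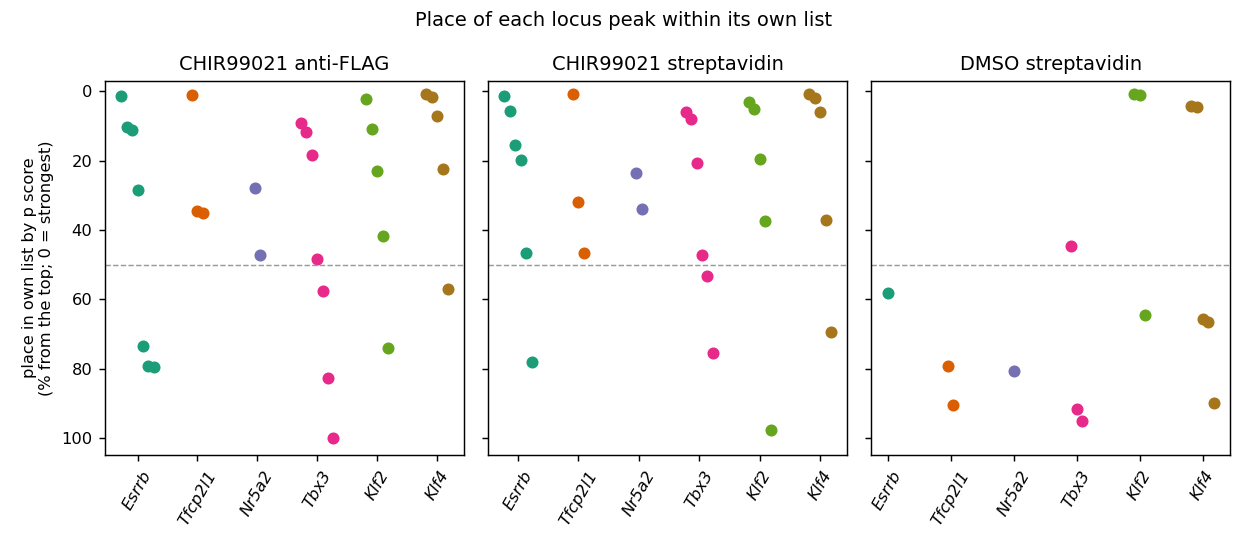
Place of every locus peak within its own list by p score, in percent from the top, for each locus and list; the dashed line marks 50%. Strong and weak CHIR99021 peaks occur together at Esrrb, Tbx3, Klf2 and Klf4, and the 4 DMSO peaks near the top belong to Klf2 and Klf4.

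CHIR99021 was then compared with DMSO. Of the 23 regions of both CHIR99021 lists, 8 (34.8%, interval 16.4 to 57.3%) held a DMSO peak, against 12.9% of all such regions. They were 3 of 4 at Klf4, 2 of 4 at Klf2, 2 of 6 at Tbx3, 1 of 2 at Tfcp2l1, 0 of 5 at Esrrb and 0 of 2 at Nr5a2. DMSO calls sat mostly in the regions ranked highest after CHIR99021. Among the 7 regions in the top 10% of both lists, 6 (85.7%, 42.1 to 99.6%) held one, against 44.5% of all 1271 such regions. Among the other 16, 2 (12.5%, 1.55 to 38.3%) did, against 7.84% of 7842. The second interval includes the genome-wide share, and the first does so narrowly. The leading Esrrb region was the only one of the 7 without a DMSO peak. Stricter limits lowered the count: with p scores limited to 100 or more throughout, 2 of 18 locus regions (11.1%) held a DMSO peak, both at Klf2, against 4.96% of all regions, and with DMSO peaks of at least 10 tags, 5 of 23 (21.7%), at Klf2 and Klf4, against 4.70%.

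**Figure D4:**
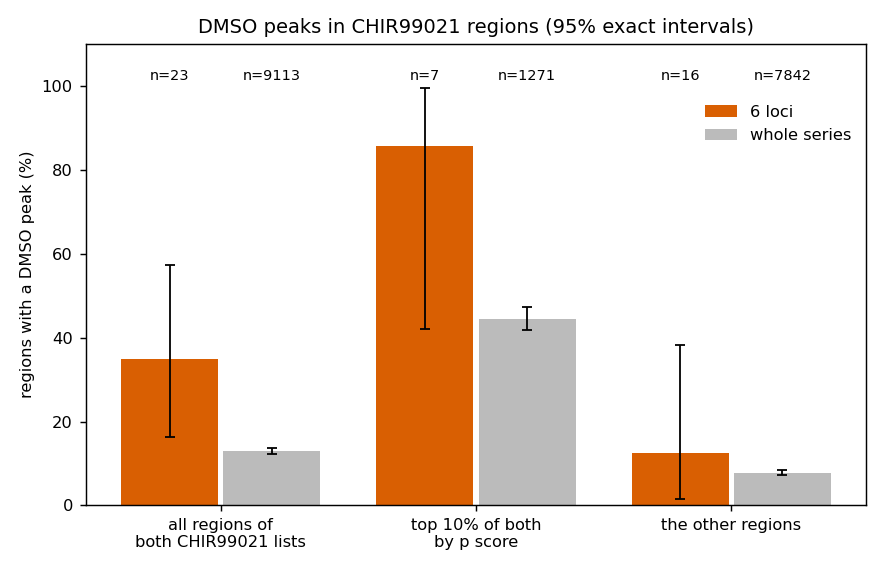
Percent of regions of both CHIR99021 lists that hold a DMSO peak at the 6 loci (orange) and in the whole series (grey), for all such regions, for those in the top 10% of both lists by p score and for the others; error bars are exact 95% intervals and n is the number of regions. The loci stand at 34.8%, 85.7% and 12.5%, against 12.9%, 44.5% and 7.84%.

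Seen from the DMSO list, 12 of its 15 peaks at the loci (80.0%, interval 51.9 to 95.7%) lay in a CHIR99021 peak, against 15.0% of the whole list. The other 3 were the peaks of 6 or 7 tags at Esrrb, Tfcp2l1 and Nr5a2 given above. The share depended on the windows: widened by 50 kb on each side, they held 26 DMSO peaks, of which 14 (53.8%, interval 33.4 to 73.4%) lay in a CHIR99021 peak. The shares of 80.0% and 15.0% were not matched for DMSO tag count or for the density and width of CHIR99021 regions. Regions of both CHIR99021 lists numbered 21.9 per Mb at the loci and 3.54 genome-wide. A trait particular to the loci therefore cannot be read from these shares. At the loci 5 DMSO peaks had 6 tags, the smallest count of the list, and 7 had 10 or more, all at Klf2 and Klf4; in the whole list 71.3% had 6 tags and 6.27% had 10 or more. The Klf2 peaks of 40 and 31 tags stood 1.12% and 0.695% from the top by p score, but 98.7% and 75.1% by fold enrichment. The median DMSO peak at the loci stood much lower by p score, at 65.6% from the top, and at 85.5% by fold enrichment. By tag count its place was 22.6%. In the 8 shared regions the DMSO summit lay a median of 52.5 bp from the CHIR99021 streptavidin summit (89.0 bp over all shared regions), and 28 bp at the nearest, at Klf4 from 55487783.

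Raw tags were higher with CHIR99021 streptavidin than with DMSO in each of the 8 shared regions, with a median ratio of 8.66 at the loci and 9.24 over all 1180 shared regions. The ratio of CHIR99021 streptavidin to DMSO ran from 5.33 at Klf4 (from 55489667) to 41.7 at Tfcp2l1, where DMSO had only 6 tags, and was 6.95 and 6.45 at the Klf2 regions. These ratios are not changes in occupancy. The fragment shift used for calling was 185 bp for anti-FLAG and 214 bp for CHIR99021 streptavidin but 30 bp for DMSO, and no total of DMSO tags is given. The called peaks also differ in width. At the leading Klf2 region the CHIR99021 streptavidin peak covered 3406 bp with 87.8 tags per kb, and the DMSO peaks 332 bp with 129.5 tags per kb. Where no DMSO peak was called, binding below the calling limit was not measured.

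The CHIR99021 peak closest to a border on the inside was at Tbx3, 13.6 kb in, with 71 anti-FLAG tags, and on the outside also at Tbx3, 13.5 kb away, with 22 anti-FLAG tags. For DMSO the closest were 3.71 kb inside at Nr5a2 and 6.81 kb outside at Klf2, both of 6 tags. In RefSeq gene order the protein-coding neighbours are Gpatch2l and Vash1 for Esrrb, Clasp1 and Gli2 for Tfcp2l1, Zfp281 and Ptprc for Nr5a2, Med13l and Tbx5 for Tbx3, Ap1m1 and Eps15l1 for Klf2, and Rad23b and Actl7b for Klf4. Which gene a peak acts on was not measured.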

How the data were processed

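β-Catenin ChIP-seq peak lists of 3 libraries were used; the 2 input libraries entered only through the authors' peak calls. Per the file headers, the authors ran MACS on ELAND alignments of each ChIP library with an input as control, at a p-value cutoff of 1.00e-05 and a tag size of 25 bp. Its version is not given in the sources. Coordinates are in mm9, per the submitters' processing notes. The deposited tables give for each peak a whole-number tag count, a p score (10 times −log10 of the p-value), a fold ratio over the local expectation and an FDR in percent. Score and fold are the authors' values and were used only within a list. Unique tags numbered 16100920 for anti-FLAG and 11934863 for CHIR99021 streptavidin; the DMSO header has no total.

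Loci, windows and lists were chosen with earlier results of these data known. An overlap of at least 1 bp made peaks partners. Regions of both CHIR99021 lists and all regions with a DMSO peak are named, and of regions in 1 CHIR99021 list at least the largest per locus. Leading regions had the smallest sum of p-score ranks. Shares carry exact (Clopper-Pearson) and tag counts exact Poisson 95% intervals, for counting error only; reads are not independent molecules. Percentages for all peaks or regions are beside the main shares, but not beside every count or every alternative setting. Overlap code was tested on simulated data. Motifs were matched as exact letters. Alternatives changed thresholds, overlap rules, windows, scaling and ranking. The work used scipy 1.17.1, pandas 2.3.3, numpy 2.4.6 and matplotlib 3.10.9 under Python 3.11.15.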

Additional observations from a re-analysis of the deposited data

How the results depend on the processing

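All alternatives but 1 were planned, and none could be tested against replicates. The 23 regions of both CHIR99021 lists at the loci became 13 at a fold of at least 10 and 15 at an FDR of at most 1%, where fewer peaks enter. They numbered 18 at a p score of at least 100 and 26 with windows widened by 50 kb. The FDR limit did not take only weak sites. It removed the anti-FLAG peaks of the leading regions at Esrrb (1.49%), Tfcp2l1 (1.76%), Klf2 (1.15%) and Klf4 (2.29%). Their streptavidin partners, at 0.0%, stayed and so lost their partner. At a fold of at least 10, Nr5a2 kept 0 regions. The partnered share of anti-FLAG peaks, 82.8%, became 94.7% at a score of at least 100 and 100% at a fold of at least 10. That of streptavidin peaks, 85.2%, became 65.2% at an FDR of at most 1%. Whole-list partnered shares at these limits are not given, so these values have no background beside them. The share of regions with a DMSO peak, 34.8%, became 11.1% (2 of 18) at a score of at least 100, a limit that left 2 of the 15 DMSO peaks. It was 21.7% with DMSO peaks of at least 10 tags. The median anti-FLAG to streptavidin ratio, 0.849, became 0.991 when scaled by tags in peaks. Windows widened by 50 kb held 33 anti-FLAG, 32 CHIR99021 streptavidin and 26 DMSO peaks, against 29, 27 and 15. The share of DMSO peaks in a CHIR99021 peak, 80.0%, was then 53.8%, an alternative chosen after seeing the data. Of 36 alternative values of these main results, 29 lay inside the main value's interval or within 1.5 times its count. Of 54 counts by locus or list, 25 were equal, 6 higher and 23 lower. The FDR limit left 0 DMSO peaks at the loci. Whole-list counts of DMSO peaks under the score and FDR limits are not given. No paired analysis was possible because every group is a single library. Since DMSO depth is not given, regions without a DMSO call cannot be read as unbound.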

Other observations

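In the DMSO list, the strongest locus peaks by p score carried the highest false discovery rates. The 4 DMSO peaks at Klf2 and Klf4 with a p score of 90 or more had rates from 12.95 to 16.9%, and the other 11 locus peaks had rates from 3.13 to 3.62%. The whole DMSO list showed the same order, with a median of 13.8% for 815 peaks with a score of 90 or more and 3.38% for the 11919 others. A limit on this rate therefore removes strong DMSO peaks at these loci before weak ones, and the cause was not tested. High rates at strong peaks were not confined to DMSO. The 5 anti-FLAG locus peaks with a p score above 1000 had rates from 1.07 to 2.29%, against a locus median of 0.600%. The highest anti-FLAG rate, 2.51%, was however at a Tbx3 peak with a score of 50.02. The 3 CHIR99021 streptavidin locus peaks with a score above 1000 had rates of 0.0%.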
